A study of Rattus norvegicus with 45 samples.

Results

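Microglia, the resident phagocytes of the brain, were followed here through 34 genes listed by symbol. The list holds receptors and adaptors of the resting cell, the complement components C1q and C3, and genes of phagocytosis, antigen presentation and myeloid transcription. Of the 34 genes, 30 had a probe set (a group of probes that report on a transcript) carrying that symbol alone on the array, and P2ry13, Siglech, Selplg and Spi1 had none. For 24 of the 30 the brightest probe set had a mean level at or above the 40th percentile, 5.88 on the log2 scale, and was tested among 18609 probe sets in all. Fcgr2b, Tlr2, Tlr4, Cd14, Cd68 and Ptprc lay below it.

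RNA came from frontal cortex, hippocampus and striatum of 15 male Sprague-Dawley rats, and each region of each rat was read on an array of its own. For 21 days a subcutaneous osmotic minipump, implanted at 9 to 11 weeks of age, delivered vehicle (acetic acid in water), haloperidol (0.25 mg/kg/d) or risperidone (5 mg/kg/d), with n = 5 rats per group. Haloperidol blocks dopamine D2 receptors, and risperidone blocks serotonin 5-HT2A and dopamine D2 receptors. No transgene, lesion or disease model is named for these rats, so the drugs were measured in otherwise untreated animals.

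Microglia survey the tissue through surface receptors for nucleotides, chemokines and lipids, and they depend on signals through CSF1R to survive. TREM2 and several Fc receptors signal through the small adaptors TYROBP and FCER1G, which carry an immunoreceptor tyrosine-based activation motif. In the brain C1q is made largely by microglia and starts the classical complement cascade, in which C3 is cleaved and tags material for the integrin that Itgam and Itgb2 encode. PU.1, the product of Spi1, is a transcription factor that defines the myeloid lineage. It binds a purine-rich core, often together with IRF8.

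The promoters are shown first because the list is built around cells of this lineage, to which its genes need not be restricted. Of the 34 genes, 23 had an entry in the RefSeq promoter table (build GRCr8). In the 250 bases before the start of transcription, the PU box, GAGGAA on either strand, was present in 15 of the 23 (65.2%). It was present in 23.2% of the 27457 promoters of the table and in 23.1% of the 11701 promoters of genes on the array. A longer ETS-IRF composite, GGAANNGAAA on either strand, which can share its GGAA with a PU box, was present in Cd68 and Cd74 (8.7% of the 23) and in 2.43% of the table. A match is a stretch of letters and shows no binding. Below are the last 160 bases before the start, 5′ to 3′ on the strand of the gene, for 6 members with a PU box and for Irf8 and Cyba, which are described below for their rise from frontal cortex to striatum and held none. Capitals mark the PU box, which reads TTCCTC where it lies on the opposite strand. The start is the one the promoter table uses, and for Itgam, Gpr34, Trem2 and Lyz2 it lies inside the outermost bounds of the gene in the same annotation, so that some or all of the stretch shown overlaps the gene. Tyrobp had no entry.
Itgam, chr1:192089432-192089591, + strand: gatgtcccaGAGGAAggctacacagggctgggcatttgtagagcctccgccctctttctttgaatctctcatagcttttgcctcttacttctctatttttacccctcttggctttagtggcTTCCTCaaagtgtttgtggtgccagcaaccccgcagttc
Gpr34, chrX:11785837-11785996, - strand: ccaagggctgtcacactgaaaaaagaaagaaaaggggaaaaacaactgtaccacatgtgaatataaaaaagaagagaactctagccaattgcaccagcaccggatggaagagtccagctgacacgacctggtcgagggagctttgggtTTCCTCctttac
Laptm5, chr5:148371720-148371879, + strand: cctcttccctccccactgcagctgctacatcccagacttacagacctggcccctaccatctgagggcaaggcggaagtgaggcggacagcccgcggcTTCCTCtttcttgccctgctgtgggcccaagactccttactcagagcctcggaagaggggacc
Trem2, chr9:20151780-20151939, - strand: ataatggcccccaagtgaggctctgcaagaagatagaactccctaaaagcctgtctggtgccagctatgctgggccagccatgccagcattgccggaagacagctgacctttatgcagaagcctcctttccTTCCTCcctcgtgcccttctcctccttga
Lyz2, chr7:54798012-54798171, - strand: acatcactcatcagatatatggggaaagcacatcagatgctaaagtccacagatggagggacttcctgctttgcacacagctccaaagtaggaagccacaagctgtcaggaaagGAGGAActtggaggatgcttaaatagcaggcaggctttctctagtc
C1qb, chr5:154407828-154407987, - strand: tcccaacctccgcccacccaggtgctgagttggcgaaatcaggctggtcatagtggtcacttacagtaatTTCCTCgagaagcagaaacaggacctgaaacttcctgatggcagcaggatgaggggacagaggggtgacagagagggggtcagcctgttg
Irf8, chr19:65699124-65699283, + strand: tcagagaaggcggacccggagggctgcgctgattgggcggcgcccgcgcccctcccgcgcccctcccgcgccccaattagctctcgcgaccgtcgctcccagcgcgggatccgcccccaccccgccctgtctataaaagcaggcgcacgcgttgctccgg
Cyba, chr19:67404215-67404374, - strand: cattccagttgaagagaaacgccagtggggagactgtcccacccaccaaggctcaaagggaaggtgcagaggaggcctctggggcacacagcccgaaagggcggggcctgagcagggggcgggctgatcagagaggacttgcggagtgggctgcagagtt

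Some libraries stood apart before any member was compared. Markers of a neighboring tissue lay on average more than 1 log2 unit above the vehicle mean of the region in 11 libraries. These were olfactory bulb markers in frontal cortex of haloperidol rat 5 and risperidone rats 2 and 5, pyramidal neuron markers in striatum of haloperidol rats 3 and 5 and risperidone rat 3, and meningeal markers in hippocampus of risperidone rat 3, striatum of haloperidol rat 2 and striatum of vehicle rat 1. Choroid plexus markers were high in the same hippocampus library of risperidone rat 3 (2.35) and in striatum of haloperidol rat 1, risperidone rat 5 and vehicle rat 1. The median log2 level of an array was higher by 0.25 in hippocampus than in frontal cortex, so that differences between regions depend on how regions are put on a common scale. All comparisons with vehicle in a region share the same 5 vehicle rats.

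The 7 defining microglial members, Cx3cr1, P2ry12, Tmem119, Csf1r, Aif1, Itgam and C1qa, were all tested, with group means from 5.64 (Itgam, striatum) to 9.43 (C1qa, hippocampus) on the log2 scale. Blood and border cells share many of these genes. All 8 probe sets of perivascular macrophage markers and all 7 of monocyte and neutrophil markers lay below the filter, with mean log2 levels of 3.34 to 5.21 and 3.52 to 5.14. Cd163, a scavenger receptor of perivascular macrophages, was at 3.61, and S100a8, a protein of neutrophil granules, was at 3.52. Of 10 lymphocyte markers with a probe set, 2 were tested. Because whole tissue was measured, more cells of a type and more RNA per cell cannot be told apart.

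After risperidone most of the 24 genes lay slightly above vehicle in all 3 regions, and 1 of them was called (limma, adjusted p under 0.05 and at least 1.2-fold). In frontal cortex 23 of 24 log2 differences were above 0, with a median of 0.18, while 54.0% of all probe sets lay above 0 with a median of 0.01. Tyrobp was the member called there, 4.17% of the 24 beside 3.4% of all probe sets. In hippocampus 22 of 24 were above 0 (median 0.11, all probe sets 0.01) and no member was called, with 0.113% of all probe sets called. In striatum 21 of 24 were above 0 (median 0.10, all probe sets -0.02) and no member was called, with 3.65% of all called. At an unadjusted p under 0.05 there were 6, 2 and 2 of the 24 members in the 3 regions, beside 22.7%, 16.6% and 22.4% of all probe sets. A second, dimmer probe set of Aif1, not counted here, differed by 0.26 in striatum (unadjusted p = 0.00436, adjusted p = 0.0658, limma). It differed by -0.01 in frontal cortex and -0.04 in hippocampus. Without risperidone rat 4 the hippocampus median was 0.06, and in striatum it was 0.03 without rat 3 and 0.17 without rat 1. Lyz2, lysozyme, was the member below 0 in frontal cortex (-0.20, standard error 0.17).

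**Figure D1:**
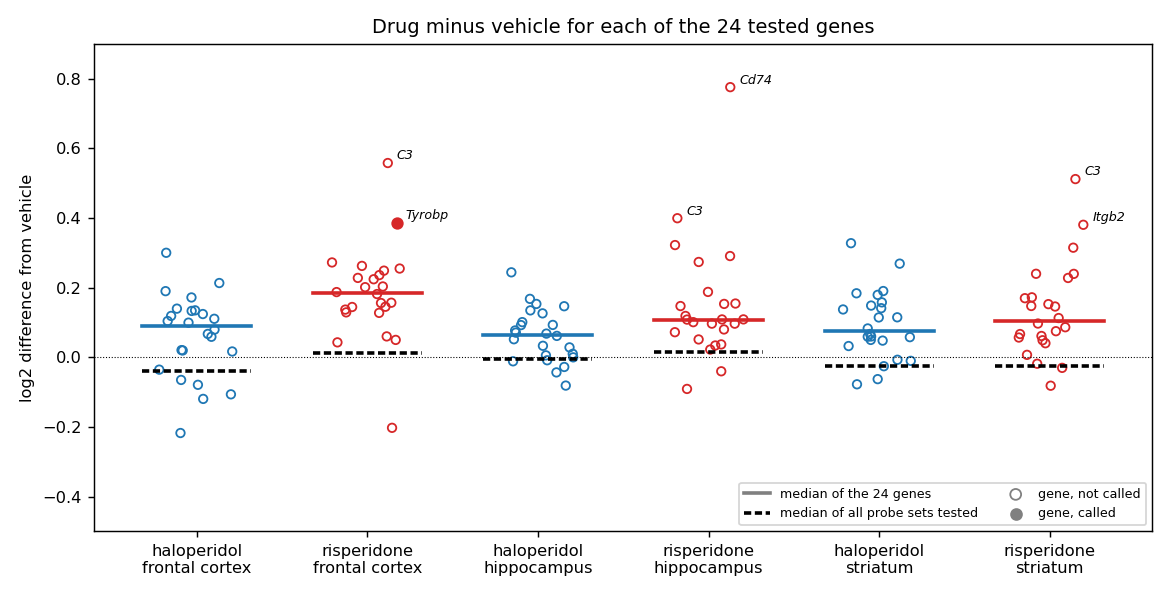
Log2 difference from vehicle (vertical axis) for each of the 24 tested genes in the 6 comparisons of a drug with vehicle, haloperidol in blue and risperidone in red. Solid lines mark the median of the 24 genes and dashed lines the median of all probe sets tested. The median of the 24 lies above that of all probe sets in each comparison, and the filled point is Tyrobp, the member that was called.

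Tyrobp, the adaptor of TREM2, had log2 levels of 6.53, 6.81, 6.64, 6.68 and 6.68 in frontal cortex of the vehicle rats and of 6.80, 7.05, 7.30, 7.20 and 6.92 after risperidone. Risperidone rat 1 lay within the vehicle range and the other 4 lay above it. The difference was 0.39 (standard error 0.11, 95% interval 0.16 to 0.62, 1.31-fold, adjusted p = 0.0376 from limma). The call stood close to the threshold: it was lost without 8 of the 10 rats, each left out in turn (all 5 vehicle rats and risperidone rats 2, 3 and 4), with a difference of 0.32 to 0.45 over all 10 and an adjusted p of up to 0.101, without vehicle rat 1. It was lost too without the 3 libraries high in olfactory bulb markers, where the difference was 0.43 and the adjusted p = 0.0714. Tyrobp differed from vehicle by 0.29 in hippocampus (adjusted p = 0.196) and by 0.23 in striatum (adjusted p = 0.229), and neither was called. Its partner receptor Trem2 differed by 0.14, 0.10 and 0.01 in frontal cortex, hippocampus and striatum, and Fcer1g, the adaptor of Fc receptors, by 0.24, 0.10 and 0.11.

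Among the complement genes, C3 had the largest risperidone difference in each region, together with the widest errors. It is named here after its values were seen. In frontal cortex the log2 levels of C3 were 6.11, 6.06, 6.04, 5.93 and 5.96 with vehicle and 6.33, 6.97, 6.88, 6.65 and 6.06 with risperidone, so that 4 of the 5 treated rats lay above all vehicle rats. The difference was 0.56 (standard error 0.23, adjusted p = 0.131). It was 0.40 in hippocampus (adjusted p = 0.372) and 0.51 in striatum (adjusted p = 0.172). None of the 3 passed the test, and the 95% interval in frontal cortex ran from 0.10 to 1.02.

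The C1q genes encode the chains of the molecule that opens the classical pathway, and no C1q gene was called. In frontal cortex C1qa read 8.91, 9.49, 9.24, 9.21 and 9.15 with vehicle, and 9.13, 9.51, 9.56, 9.48 and 9.25 with risperidone. C1qb read 8.23, 8.78, 8.49, 8.37 and 8.51 with vehicle, and 8.30, 8.85, 8.86, 8.92 and 8.58 with risperidone. The groups overlapped for both. C1qc read 7.16, 7.34, 7.48, 7.29 and 7.36 with vehicle, 7.43, 7.23, 7.27, 7.11 and 7.20 with haloperidol, and 7.46, 7.67, 7.76, 7.54 and 7.22 with risperidone. Risperidone minus vehicle was 0.19 for C1qa, 0.23 for C1qb and 0.20 for C1qc, with adjusted p of 0.235, 0.228 and 0.188. In hippocampus the 3 differences were 0.10, 0.15 and 0.03, and in striatum 0.15, 0.07 and -0.03, with no gene called.

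Itgb2, the common chain of the leukocyte integrins, had its largest risperidone difference in striatum. The vehicle rats read 6.70, 6.49, 6.42, 6.49 and 6.68, and the risperidone rats 6.62, 6.86, 7.31, 7.03 and 6.88, with risperidone rat 1 alone inside the vehicle range. The difference was 0.38 (standard error 0.12, 95% interval 0.14 to 0.62), with an adjusted p = 0.0541 from limma, so it was not called. It was called with quantile normalization over all arrays (adjusted p = 0.0408) and without risperidone rat 1, 4 or 5. Without risperidone rat 3, whose striatum library was high in pyramidal neuron markers, it was 0.29 (adjusted p = 0.238). Itgam, the partner chain, differed by 0.24 in striatum, and its groups overlapped.

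Cyba encodes the small subunit of the membrane core of the phagocyte NADPH oxidase, and it was the single member whose risperidone and vehicle rats did not overlap in any region. In frontal cortex the vehicle rats read 6.43, 6.72, 6.58, 6.60 and 6.68 and the risperidone rats 6.74, 6.96, 6.84, 6.85 and 6.74. Of all probe sets, 5.64% had groups that did not overlap in this comparison. The difference was 0.22 (standard error 0.07, 1.17-fold, adjusted p = 0.0567), which met neither threshold. It was 0.11 in hippocampus and 0.04 in striatum. The share of all probe sets whose groups did not overlap was 4.16% for risperidone in hippocampus and 3.65% in striatum, and no member was among them.

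Of the other phagocyte genes, Cd74, the invariant chain of major histocompatibility complex (MHC) class II, varied most between rats and is named after its values were seen. In hippocampus it read 7.05, 6.60, 6.29, 7.15 and 6.27 with vehicle and 6.76, 7.70, 7.71, 8.38 and 6.68 with risperidone. Risperidone rats 2, 3 and 4 lay above all vehicle rats, and rats 1 and 5 lay among them. The hippocampus library of risperidone rat 3 was high in meningeal and choroid plexus markers, whose part in this value was not tested. The difference was 0.78 (standard error 0.35, adjusted p = 0.250), with a 95% interval from 0.08 to 1.47. Laptm5, a lysosomal membrane protein, differed by 0.20, 0.12 and 0.10 in the 3 regions, and its second probe set by 0.30, 0.09 and 0.01. Ctss, the protease cathepsin S, differed by at most 0.07.

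**Figure D2:**
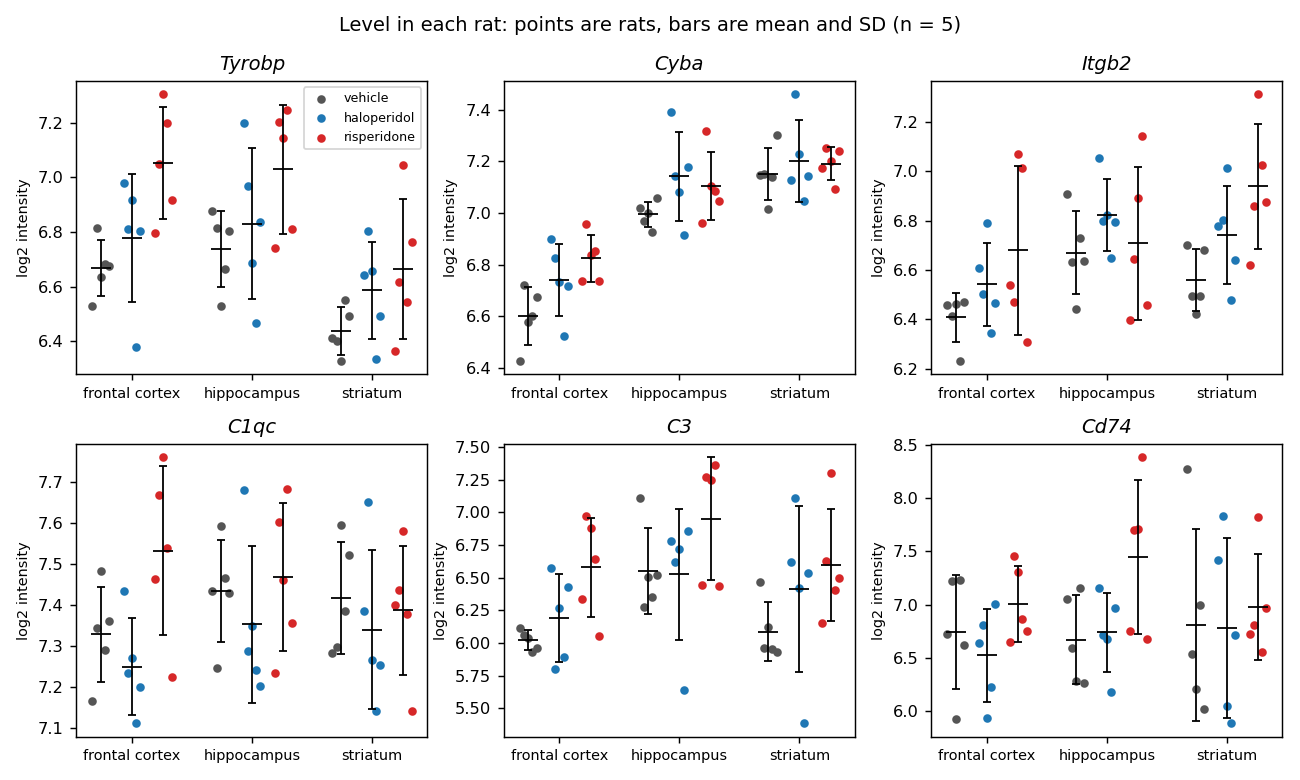
Log2 intensity (vertical axis) of 6 genes in every rat, by region and treatment. Points are rats and bars are the mean and SD (n = 5). In frontal cortex the risperidone rats lie above the vehicle rats for Cyba, 4 of 5 do so for Tyrobp and C3, and the groups overlap for Cd74.

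No surface receptor of resting microglia was called. Cx3cr1, the fractalkine receptor, differed from vehicle after risperidone by 0.14, 0.02 and 0.06 in frontal cortex, hippocampus and striatum, and Csf1r by 0.13, 0.08 and 0.06. P2ry12, the receptor for ADP, differed by 0.16, 0.32 and 0.31, with adjusted p of 0.597, 0.305 and 0.237, and its second probe set by 0.24, 0.19 and 0.14. Tmem119, a surface protein of resident microglia, lay at 0.06, -0.09 and -0.02. Of the 24 members, 20 in frontal cortex, 21 in hippocampus and 19 in striatum had 95% intervals that stayed within 1.5-fold of vehicle, so larger changes remained possible for 4, 3 and 5 members, among them C3 and Cd74 in every region.

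After haloperidol no member was called in any region. In frontal cortex 18 of 24 were above 0 (median 0.09, all probe sets -0.04), with 0.177% of all probe sets called. In hippocampus 18 of 24 were above 0 (median 0.06), with 0% of all called, and in striatum 19 of 24 (median 0.07 beside -0.02), with 0.339% called. These medians moved with single rats: without haloperidol rat 1 that of hippocampus was -0.0038, with 12 of 24 above 0, and over all rats left out in turn the medians ran from 0.05 to 0.13 in frontal cortex (lowest without haloperidol rat 3), up to 0.12 in hippocampus (without haloperidol rat 4) and from 0.04 (without haloperidol rat 2) to 0.13 (without haloperidol rat 4) in striatum. The striatum median was 0.12 without the libraries high in pyramidal neuron markers and 0.04 without those high in meningeal markers. At an unadjusted p under 0.05 stood Trem2 in frontal cortex (0.19, standard error 0.09, adjusted p = 0.325) and no member in hippocampus or striatum. Of all probe sets, 13.6%, 3.76% and 15.4% were under that p in frontal cortex, hippocampus and striatum. The second probe set of Aif1, not counted here, differed by 0.25 in frontal cortex (unadjusted p = 0.00593, adjusted p = 0.198, limma). It differed by 0.05 in hippocampus and 0.13 in striatum. The brighter probe set of Aif1 had frontal cortex means of 7.92 with haloperidol and 7.95 with vehicle. No member had haloperidol rats all above or all below vehicle, which held for 3.96%, 1.32% and 3.42% of all probe sets in frontal cortex, hippocampus and striatum. The largest differences were those of Mpeg1, a pore-forming protein of macrophages, with 0.30 (frontal cortex) and 0.24 (hippocampus), and of C3 with 0.33 (striatum). In 21, 22 and 21 of the 24 members the 95% interval stayed within 1.5-fold of vehicle.

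Set directly against each other, the drugs gave no call for any member. In frontal cortex 17 of 24 genes were higher with risperidone than with haloperidol (median 0.08, all probe sets 0.05), and 0.768% of all probe sets were called. C1qc came nearest, at 0.28 (standard error 0.09, 95% interval 0.09 to 0.47, adjusted p = 0.0902), and was called only when haloperidol rat 1 (adjusted p = 0.0390) or risperidone rat 5 (adjusted p = 0.0304) was left out. Tyrobp (0.28) and Aif1 (0.29) had adjusted p of 0.164 and 0.244. The second probe set of Aif1 read -0.26, so that the 2 probe sets of this gene disagreed in sign. In hippocampus, where 0% of all probe sets were called, and in striatum, where 0.0161% were, 17 and 15 of 24 members were higher with risperidone. Without the 3 striatum libraries high in pyramidal neuron markers, 6 of 24 were higher in striatum and the median turned from 0.05 to -0.03. The doses in mg/kg differ between the drugs, and the study chose both for exposures relevant to patients, so these values compare the treatments as given.

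For no member was a difference in drug effect between regions called. For haloperidol the share of all probe sets called was 0.0269% for striatum minus frontal cortex, 0% for hippocampus minus frontal cortex and 0% for striatum minus hippocampus. For risperidone it was 2.94%, 1.32% and 1.66%. At an unadjusted p under 0.05 stood Cyba, whose risperidone effect was lower by 0.18 in striatum than in frontal cortex (adjusted p = 0.229), and Itgb2, whose effect was higher by 0.34 in striatum than in hippocampus (adjusted p = 0.197). Each was the only member of the 24 under that p in its comparison, where 21.5% and 19% of all probe sets were under it.

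The members varied from rat to rat, with many of them high or low together. The mean deviation of the 24 genes from the vehicle mean was 0.29, 0.29 and 0.10 in frontal cortex, hippocampus and striatum of risperidone rat 2. It was 0.39, 0.23 and 0.46 in rat 3, and 0.31, 0.38 and 0.10 in rat 4. Risperidone rat 1 lay below the vehicle mean at -0.08, -0.13 and -0.12. Risperidone rat 5 lay near it in frontal cortex and hippocampus (0.01 and -0.03), and in striatum (0.13) above the highest vehicle rat (0.06). In frontal cortex and hippocampus 3 of the 5 risperidone rats were thus high and the other two near or below vehicle. Among the haloperidol rats, rat 1 (0.21, 0.25 and 0.16) and rat 2 (0.16, 0.20 and 0.41) were high and rat 4 was low (-0.17, -0.17 and -0.19). The vehicle rats ran from -0.10 to 0.15. Haloperidol rat 4 lay below the vehicle range of every region, and risperidone rat 1 below that of hippocampus and striatum. The SD of this mean over 5 rats was 0.16 to 0.22 in the drug groups and 0.07 to 0.10 with vehicle.

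**Figure D3:**
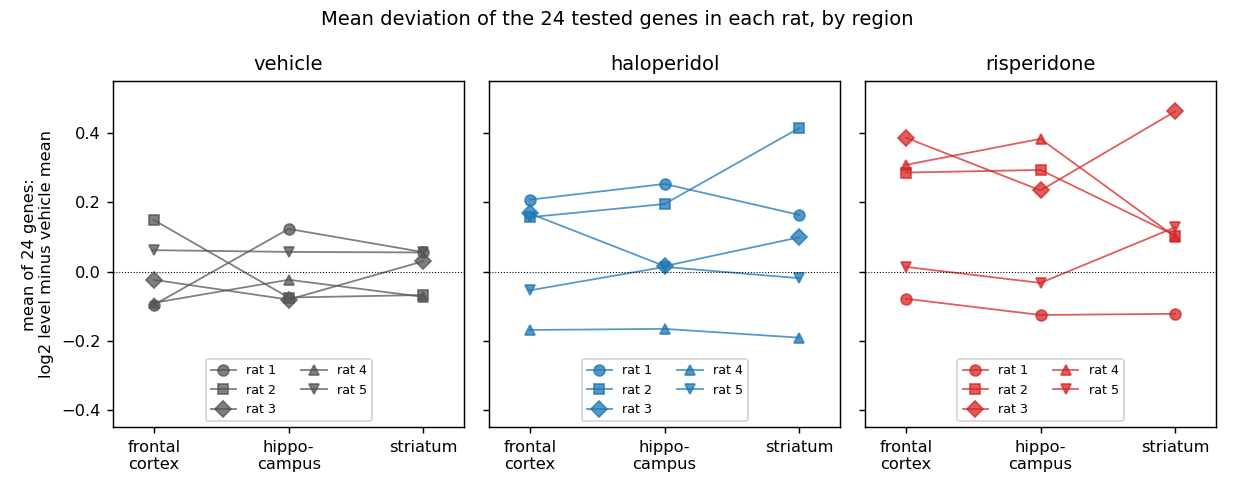
Mean over the 24 tested genes of the log2 level minus the vehicle mean of the region (vertical axis), for each rat in frontal cortex, hippocampus and striatum. Lines join the 3 regions of a rat. Risperidone rats 2, 3 and 4 lie above 0 in every region and rat 1 below it, while the vehicle rats lie between -0.10 and 0.15.

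Gene by gene, the correlation between regions of a rat within the 9 groups, as limma estimates it from 45 arrays, had a median of 0.56 over the 24 members and of 0.22 over all probe sets tested. All 24 members lay above the median of all. The highest were Mpeg1 (0.90), Ctss (0.81), Cd53, a leukocyte tetraspanin (0.73), P2ry12 (0.73) and Fcer1g (0.72). The lowest was Irf8 (0.275). The regions of a rat share the animal and its dissection, and these values are given as a description.

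**Figure D4:**
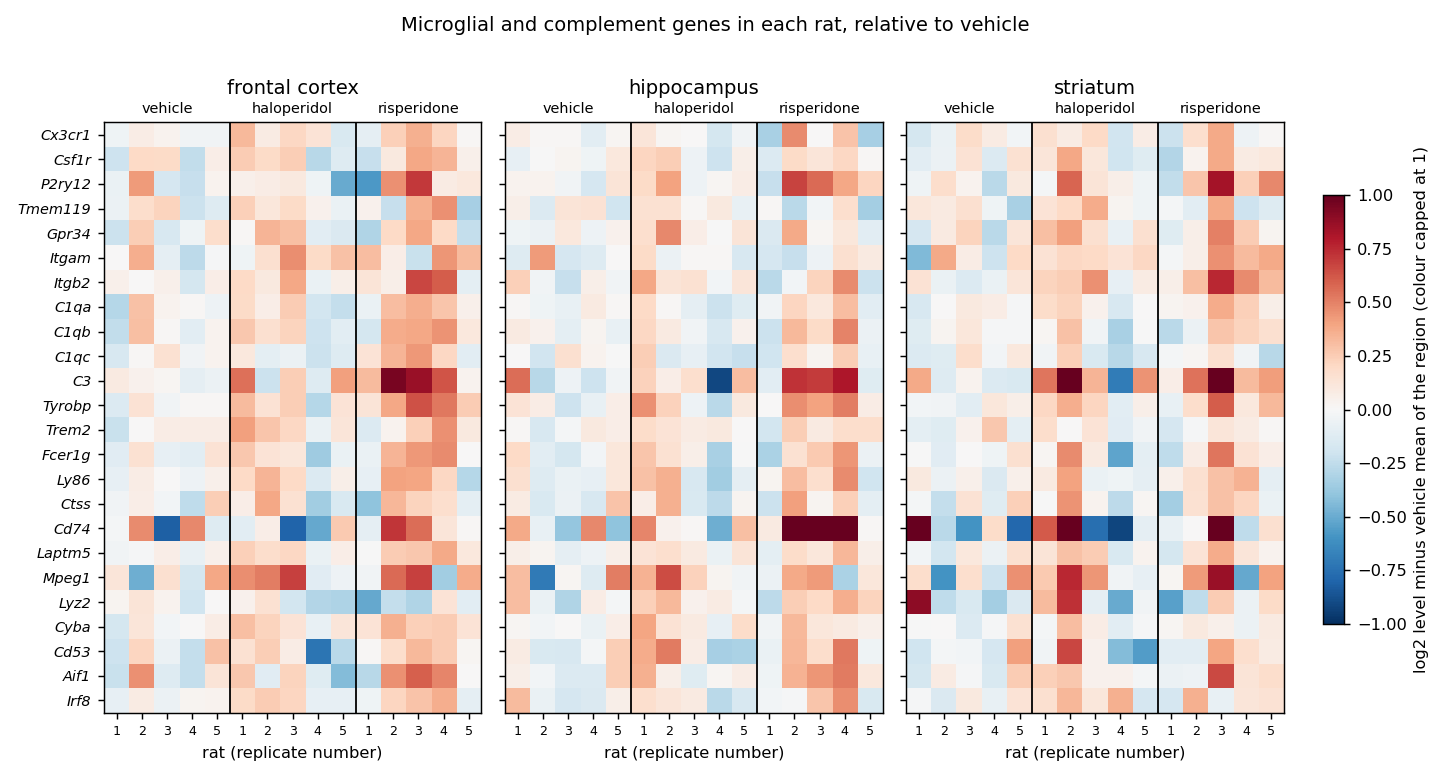
Log2 level minus the vehicle mean of the region (color, capped at 1 in either direction) for each of the 24 tested genes (rows) in each rat (columns), by region and treatment. Columns for risperidone rats 2, 3 and 4 are red over most rows in frontal cortex and hippocampus, those for haloperidol rat 4 and risperidone rat 1 are mostly blue, and Cd74 and C3 have the strongest colors.

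Markers of other cells were read beside these values, and their part in them was not tested. After risperidone 0 of 11 endothelial markers lay above vehicle in frontal cortex (median -0.31) and hippocampus (median -0.24), and 1 of 11 in striatum (median -0.18). Slco1c1, a thyroid hormone transporter of brain endothelium, fell by 0.42 in frontal cortex, and Emcn, endomucin, fell by 0.43 in striatum. The summed intensity of the 11 ran from 3648 to 4566 with vehicle and from 2459 to 3694 with risperidone in frontal cortex. Of 9 oligodendrocyte markers, 8, 9 and 9 lay above vehicle after risperidone (medians 0.19, 0.35 and 0.24), and 9 of 9 after haloperidol in each region (medians 0.42, 0.28 and 0.27). Of 3 erythroid markers, 0, 1 and 0 lay above vehicle after risperidone (medians -0.24, -0.39 and -0.09), and none was called. Of 9 markers of striatal projection neurons, 8 lay above vehicle in frontal cortex (median 0.28) and hippocampus (median 0.20) and 1 in striatum (median -0.27, with 1 called as lower, beside 3.65% of all probe sets called in either direction). Meningeal markers lay above vehicle in 9, 8 and 7 of 9 (medians 0.13, 0.51 and 0.11), and choroid plexus markers had medians of 0.05, 0.72 and -0.09. In frontal cortex after risperidone, pyramidal neuron, pan-neuronal and astrocyte markers differed from the vehicle mean by -0.15, -0.09 and -0.02. In hippocampus they differed by -0.14, -0.03 and 0.09, and in striatum by 0.74, 0.03 and 0.12. After haloperidol pyramidal neuron markers differed by -0.10, -0.09 and 0.72 in frontal cortex, hippocampus and striatum. Olfactory bulb markers in frontal cortex were higher by 1.25 after risperidone, with every risperidone rat (0.22 to 2.72) above the vehicle range (-0.16 to 0.17). Leaving out the 3 frontal cortex libraries highest in these markers did not remove this shift, as every risperidone rat kept lay above that range. Without them 23 of 24 members lay above 0 after risperidone, with a median of 0.19. Without the 3 striatum libraries high in pyramidal neuron markers, among them that of risperidone rat 3, 16 of 24 did, and the median was 0.04 in place of 0.10. Without the libraries high in choroid plexus markers 22 of 24 lay above 0 in hippocampus (median 0.11) and 21 of 24 in striatum (median 0.10). The mean of 46 ribosomal protein genes was higher by 0.11 after risperidone in frontal cortex (range 0.00 to 0.22 over the rats) and by 0.06 in hippocampus.

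Other genes of the same biology were counted by lists, which were chosen with earlier results of these data known. For risperidone 3.4% of all probe sets were called in frontal cortex, 3.65% in striatum and 2.94% for the difference in effect between them. A single call in a short list is not read as a result about that list. Of 15 further homeostatic microglia genes tested, 1 rose after risperidone in frontal cortex: Sall1, a zinc finger transcription factor of resident microglia, by 0.45 (standard error 0.10, adjusted p = 0.00957, limma). Without the libraries high in olfactory bulb markers it differed by 0.28 (adjusted p = 0.113). Of 15 genes of activated microglia, Gpnmb, a glycoprotein of lipid-laden phagocytes, rose in frontal cortex by 0.50 (adjusted p = 0.0432, lost without 7 of 10 rats, up to 0.132 without vehicle rat 5, and 0.130 without the libraries high in olfactory bulb markers). Lpl, lipoprotein lipase, fell in striatum by 0.56 (adjusted p = 0.0303, lost without 4 of 10 rats, up to 0.175 without risperidone rat 3, and 0.0924 without the libraries high in pyramidal neuron markers). Its risperidone effect was lower in striatum than in frontal cortex by 0.82 (adjusted p = 0.0175), a call lost without 3 of 10 rats and, at 0.0512, without the libraries high in olfactory bulb markers. Of 14 other complement genes and regulators, C1ql1, a synaptic C1q-like protein of neurons, rose in frontal cortex by 0.40 (adjusted p = 0.0298, lost without 6 of 10 rats, up to 0.1 without risperidone rat 2), and differed by 0.25 (adjusted p = 0.244) without the libraries high in olfactory bulb markers.

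Of 10 ligands and partners of microglial receptors, 1 was called in frontal cortex after risperidone, beside 3.4% of all probe sets. Ptprj, a receptor tyrosine phosphatase, fell there by 0.43 (standard error 0.08, adjusted p = 0.00102). It was called without each of the 10 rats in turn (-0.46 to -0.40). It was also called without the olfactory bulb libraries (adjusted p = 0.00779), where the risperidone rats kept still exceeded vehicle in olfactory bulb markers. Its risperidone effect was higher in striatum than in frontal cortex by 0.52 (adjusted p = 0.00366). Of 9 antigen presentation genes none was called against vehicle after either drug, and 6, 6 and 9 of 9 lay above 0 after risperidone in frontal cortex, hippocampus and striatum. No gene of these 5 lists was called after haloperidol in any region, or after risperidone in hippocampus. Of all probe sets, 0.177%, 0% and 0.339% were called after haloperidol in frontal cortex, hippocampus and striatum, and 0.113% after risperidone in hippocampus. Between the drugs in frontal cortex, where 0.768% of all probe sets were called, Nos2, the inducible nitric oxide synthase, was lower with risperidone by 0.27 (adjusted p = 0.0440), RT1-Ba, an MHC class II chain, by 0.36 (adjusted p = 0.0423) and Ptprj by 0.29 (adjusted p = 0.0423). These 3 calls were lost without 7, 7 and 5 of 10 rats, with adjusted p of up to 0.148, 0.147 and 0.144, each without haloperidol rat 3, and all 3 were lost without the libraries high in olfactory bulb markers (adjusted p of 0.130, 0.0936 and 0.0936).

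Regions were compared in vehicle rats. Irf8, a transcription factor of myeloid cells, was higher in striatum. The 5 rats had log2 levels of 6.97, 6.84, 7.08, 6.90 and 7.12 there. The frontal cortex of the same rats read 5.69, 5.85, 5.71, 5.79 and 5.80, and the hippocampus 6.16, 5.77, 5.67, 5.70 and 5.89. Every striatum value lay above every value of the other regions. Striatum exceeded frontal cortex by 1.21 (standard error 0.10, 2.31-fold, adjusted p = 7.53e-14) and hippocampus by 1.14 (adjusted p = 2.27e-13), and hippocampus and frontal cortex differed by 0.07 (adjusted p = 0.554). With all 3 treatments averaged the differences were 1.21 and 1.19. The call stood with quantile normalization over all arrays (1.22 and 1.40) and with each array centred on its median (1.22 and 1.42).

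Cyba, too, was higher in striatum than in frontal cortex, by 0.55 (adjusted p = 7.27e-10). Its levels were 6.43 to 6.72 in frontal cortex, 6.93 to 7.06 in hippocampus and 7.01 to 7.30 in striatum. The rise stood under both other scalings (0.57 and 0.56). Lyz2 fell from frontal cortex (9.92 to 10.25) to hippocampus (9.26 to 9.86) by 0.56 and to striatum by 0.74, where 4 rats read 9.04 to 9.24 and vehicle rat 1 read 10.27. Without that rat, whose striatum library was high in meningeal markers, the fall to striatum was 0.96. Gpr34, a receptor for lysophosphatidylserine, fell from frontal cortex (6.40 to 6.86) to hippocampus by 0.54 (6.01 to 6.18, no overlap) and to striatum by 0.39 (5.95 to 6.45). These falls of Lyz2 and Gpr34 stood under both other scalings.

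**Figure D5:**
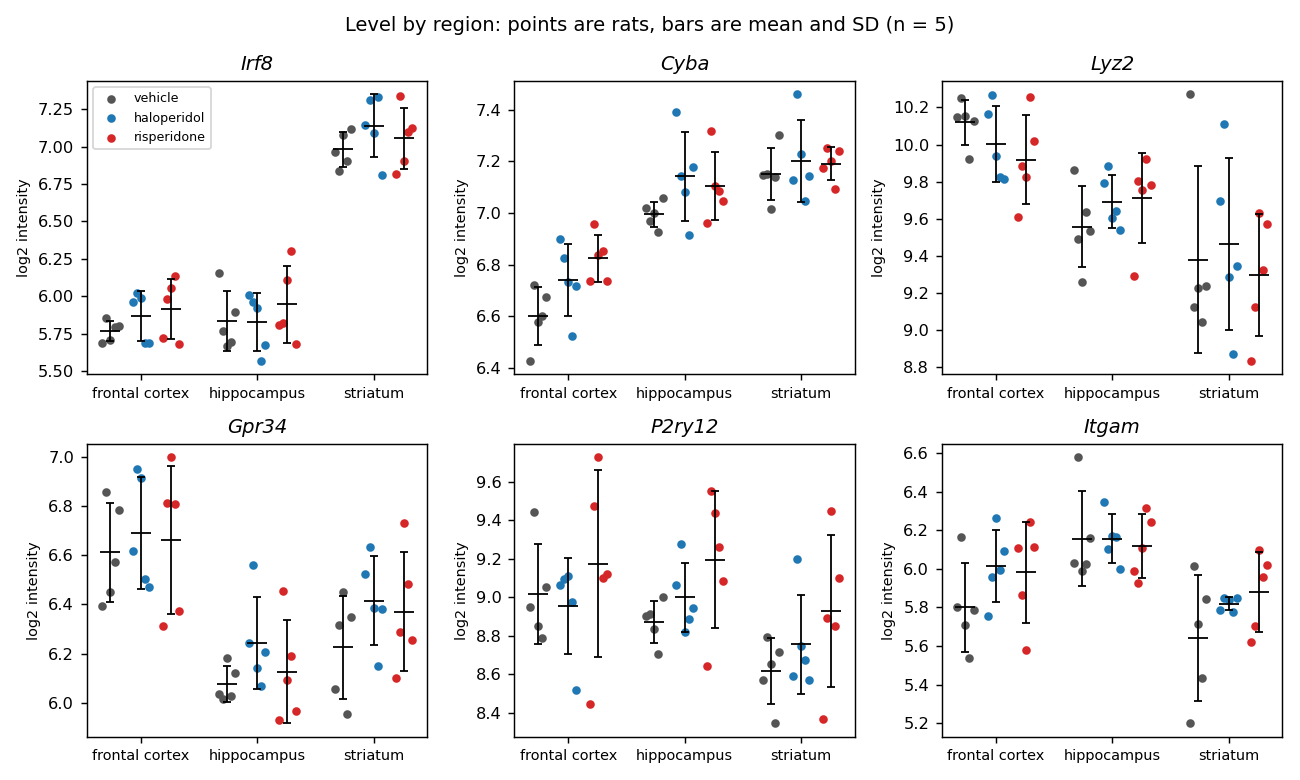
Log2 intensity (vertical axis) of 6 genes by region and treatment. Points are rats and bars are the mean and SD (n = 5). Irf8 in striatum lies above both other regions in all 15 rats, Cyba is lowest in frontal cortex, and Lyz2 and Gpr34 are highest there, with vehicle rat 1 at 10.27 for Lyz2 in striatum.

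In all, 2 members rose and 3 fell from frontal cortex to striatum (20.8% called, 46.1% of all probe sets), P2ry12 being the fifth (-0.40, adjusted p = 0.0121). The second probe set of P2ry12 differed by -0.06 and was not called, and the call was lost without vehicle rat 2 (adjusted p = 0.0569). From frontal cortex to hippocampus 5 rose and 2 fell (29.2%, 53.2% of all), and from hippocampus to striatum 1 rose and 5 fell (25.0%, 62.5% of all). The remaining calls in hippocampus depended on the scale. C1qb, C3, Cyba, Itgam and Itgb2 were higher in hippocampus than in frontal cortex by 0.27, 0.53, 0.39, 0.36 and 0.26, but all probe sets had a median of 0.25 in that comparison. With quantile normalization 0 members rose and 5 fell there, and from hippocampus to striatum 8 rose and 0 fell. Itgam (-0.52), C3 (-0.47), Tyrobp (-0.30), C1qb (-0.30) and Tmem119 (-0.28), lower in striatum than in hippocampus as deposited, were read against a median of -0.30, none was called after quantile normalization, and C1qb and Tmem119 turned above 0. Several of these calls rested on single rats: C1qb (adjusted p = 0.130), C3 (0.0895) and Itgb2 lost theirs between hippocampus and frontal cortex without vehicle rat 1, and C1qb and Itgb2 also without vehicle rat 4. Between striatum and hippocampus C1qb and Tyrobp were lost without vehicle rat 1, Tmem119 without rat 4 or 5, and C3 without rat 1, 3, 4 or 5.

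The 6 members below the filter were fitted in a run without the filter. None was called after either drug, with adjusted p of 0.202 or more. Fcgr2b, the inhibitory Fc receptor, was lower in striatum than in frontal cortex by 0.82 (adjusted p = 0.000998) and than in hippocampus by 1.09 (adjusted p = 1.75e-05). Cd14, the co-receptor for lipopolysaccharide, was lower in frontal cortex than in striatum by 0.44 and than in hippocampus by 0.45. Signals this low lie near the level at which the array separates a transcript from background.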

How the data were processed

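Gene expression was measured on 45 Affymetrix rat arrays, 3 brain regions from each of 15 rats. The deposited values are linear intensities that the authors made with the RMA method in R 2.7.2, and array medians ran from 87.9 to 110.4. Depth does not apply to arrays, whose number limits the precision. The log2 of each intensity was taken, 57 control probe sets were dropped, and 18609 of 31099 probe sets, those with a mean at or above the 40th percentile (log2 5.883), were tested. They name 10248 genes through the platform annotation, and a gene was read from its brightest probe set carrying that symbol alone.

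One model of treatment by region was fitted with limma 3.58.1 in R 4.3.3, with the rat as a random block (correlation 0.226). P-values were adjusted by the Benjamini-Hochberg method over all probe sets, and a probe set was called at 1.2-fold or more with an adjusted p under 0.05. The fit was tested on simulated data first. The labels do not tie replicate numbers to cages, days or arrays. Same-rat arrays of different regions deviated together in 44 of 45 pairs (median correlation 0.354).

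The members and lists were chosen with earlier results of these data known. Values by rat are given for members called in a drug comparison or in a difference between regions, for those with an unadjusted p under 0.01 and for the C1q genes. Other genes of the lists are named where called in a drug comparison. Region comparisons name the 5 largest rises and falls. Alternatives were other blocks, filters, scalings, variance priors, probe set choices, thresholds, the sum of intensity and 16, and leaving out each rat in turn. Leaving out libraries high in markers of other tissue was chosen after seeing the data.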

Additional observations from a re-analysis of the deposited data

Results flagged for a closer look

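Of 216 groups of 5 rats, 9 held a rat far from the others by Dixon's criterion, where chance flags about 1 in 20 groups. On the log2 scale, the lowest rats were haloperidol rat 5 for P2ry12 in frontal cortex (8.5171), vehicle rat 4 for Itgb2 in frontal cortex (6.2317), haloperidol rat 4 for C3 in hippocampus (5.6407), vehicle rat 1 for Trem2 in frontal cortex (6.6199) and risperidone rat 1 for Lyz2 in hippocampus (9.2934). The highest were haloperidol rat 2 for P2ry12 in striatum (9.1991), vehicle rat 1 for C3 in hippocampus (7.1143), vehicle rat 1 for Lyz2 in striatum (10.2707) and vehicle rat 5 for Cd53 in striatum (8.0506). The striatum libraries of haloperidol rat 2 and vehicle rat 1 were also high in meningeal markers, whose part in these values was not tested.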

How the results depend on the processing

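The number of members called for risperidone in frontal cortex was 0 in place of 1 without the rat as a block, with the replicate block (replicate number as a fixed factor) and in fits of 1 region at a time. It was 0 too with no filter, with quantile normalization, with each array centred on its median and without the libraries high in olfactory bulb markers. A filter at the 60th percentile also gave 0, but it left out Tyrobp, whose mean lay at the 52.5th percentile, and so does not test that call. In striatum 1 member was called after quantile normalization. The 60th percentile filter left 14 members, which is the construction behind its lower counts: above 0 were 9, 11 and 10 after haloperidol and 13, 13 and 11 after risperidone (frontal cortex, hippocampus and striatum), and 2 members were called in each of the 3 region comparisons. With the mean over the 3 treatments, 4 were called between hippocampus and frontal cortex, and with no fold threshold 10 between striatum and hippocampus. The median for risperidone in striatum was 0.0354 without the libraries high in pyramidal neuron markers. Under quantile normalization C1qb (0.0428) and Tmem119 (0.0248) reversed between striatum and hippocampus, where the cause was not tested. Leaving out each rat in turn, the members called ranged from 0 to 1 for risperidone in frontal cortex, 0 to 2 in striatum, 0 to 1 for risperidone against haloperidol in frontal cortex and 4 to 8 between hippocampus and frontal cortex, and the median for risperidone in striatum from 0.0335 to 0.172. Replicate numbers did not pair drug and vehicle rats: correlations of same-numbered rats ran from -0.383 to 0.551, with 6 of 30 over 0.1. With the replicate block Tyrobp had an adjusted p = 0.0506 from limma, and the median of 0.18 for risperidone in frontal cortex did not move. Fits by region could not serve comparisons between regions.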
